A study of Mus musculus with 45 samples.

Results

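The genes described here are Nlrp6, Pycard, Casp1, Casp4, Il18, Gsdmd, Gsdmc2, Gsdmc3 and Gsdmc4, which encode parts of inflammasomes and members of the gasdermin family. They were chosen by name, with earlier results of these data known. All 9 were found among the 47729 genes of the deposited tables and among the 14020 genes tested. Expression was measured by Smart-seq2 RNA sequencing of tuft cells, chemosensory cells of the gut lining, sorted from the small intestine of single male C57BL/6J mice housed at thermoneutrality. The 45 libraries, 1 per mouse, came from 11 mice on a reference fat diet (RFD, 10% fat) and 11 on a high fat diet (HFD, 60% fat) after 9 weeks of feeding, and from 11 RFD and 12 HFD mice of a second set. No genetic change is named for either diet group. The study housed several mice per cage, and the mice of a cage belonged to the same group. The labels do not give the cage, and the tests treated the mice as independent. The labels give the sorted cells as positive for EpCAM, CD45 and Siglec-F, whereas the study's methods describe CD45 both as a marker of the sorted cells and as one by which cells were left out, so whether the cells carried CD45 is not settled here. Ptprc, the gene of CD45, had 2 to 918 reads per library. The labels give 9 weeks for every library, whereas the study fed mice for 9 and for 22 weeks, so the second set was taken as the 22-week mice. A difference between the feeding times can therefore not be told apart from a difference between the sets of libraries.

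An inflammasome is a protein complex in which a sensor such as NLRP6 recruits the adaptor ASC, the product of Pycard, and through it caspase-1. Caspase-1 cuts the precursors of interleukin-18 and interleukin-1β into their active forms and cuts gasdermin D, whose released end forms pores in the plasma membrane, while the caspase encoded by Casp4 (caspase-11) senses bacterial lipopolysaccharide in the cytosol and also cuts gasdermin D. In the gut, NLRP6 and interleukin-18 are best known from epithelial cells, where they are linked to mucus release and to the balance with the microbiota. Gsdmc2, Gsdmc3 and Gsdmc4 are mouse copies of the gasdermin C gene and are expressed in the intestinal epithelium. All of these proteins are activated by cleavage or assembly, which RNA levels do not show.

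The genes lie in a few places of the mouse genome (GRCm38, GENCODE M21). Nlrp6 is at chr7:140920902-140929192 and Pycard at chr7:127989708-127993867. Casp1 at chr9:5298517-5307265 and Casp4 at chr9:5308828-5336783 are neighbours, and Il18 is on the same chromosome at chr9:50554827-50581840. Gsdmd is at chr15:75862327-75867408, and Gsdmc2 (chr15:63824346-63845177), Gsdmc3 (chr15:63857724-63878558) and Gsdmc4 (chr15:63891264-63912297) follow one another on the minus strand. The sequences of these 3 copies are shown because they set how well reads can be assigned to one of them. Their coding sequences are each 1440 bases long, with 97.1% identity between Gsdmc2 and Gsdmc3 over the aligned bases and 94.5% between Gsdmc4 and either of the others. In a window of 90 coding bases starting at coding base 85, the 3 genes have the same sequence (Gsdmc2 at chr15:63835770-63835859, Gsdmc3 at chr15:63869124-63869213, Gsdmc4 at chr15:63902757-63902846, minus strand):
Gsdmc2, Gsdmc3 and Gsdmc4: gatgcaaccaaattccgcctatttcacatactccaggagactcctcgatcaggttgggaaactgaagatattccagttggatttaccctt
In the window of this length that differs most, 18 positions are not the same in all of the copies, and these are printed in capitals (Gsdmc2 at chr15:63826834-63826923, Gsdmc3 at chr15:63860264-63860353, Gsdmc4 at chr15:63893781-63893870, minus strand):
Gsdmc2: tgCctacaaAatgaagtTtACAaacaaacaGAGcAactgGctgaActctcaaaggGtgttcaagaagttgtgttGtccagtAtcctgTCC
Gsdmc3: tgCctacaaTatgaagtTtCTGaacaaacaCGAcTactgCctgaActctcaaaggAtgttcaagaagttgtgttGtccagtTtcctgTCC
Gsdmc4: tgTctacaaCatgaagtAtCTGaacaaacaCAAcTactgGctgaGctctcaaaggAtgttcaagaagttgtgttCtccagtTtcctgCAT
Of all stretches of 50 bases in the annotated transcripts, 51.3% of those of Gsdmc2, 46.0% of those of Gsdmc3 and 39.0% of those of Gsdmc4 also occur in another gene. Counting divides such reads among the copies, so the values of each copy are uncertain and their sum is given as well. Nlrp6, Casp1, Il18 and Gsdmd share no such stretch with another gene. Pycard shares 11.5% with Gm45205, an antisense gene that overlaps it, and the libraries are not known to keep strand. Gm45205 itself had 0 to 18 reads per library.

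The libraries held 189340 to 4193097 reads on genes for RFD and 409023 to 3600000 for HFD at 9 weeks, and 829184 to 3476758 for RFD and 661598 to 4690213 for HFD at 22 weeks. Of the tuft cell markers listed, 20 of 20 were detected and Dclk1, Trpm5 and Siglecf had reads in every library, so RNA of tuft cells was present throughout, as was RNA of other cells. The T cell marker Cd3e had at most 32 reads in a library. The summed CPM (reads scaled to a library of fixed size after TMM normalization) of the tuft markers was 4316 to 28062 on RFD (median 17984) and 395.6 to 26839 on HFD (median 7530) at 9 weeks, and the medians were 19741 and 15258 at 22 weeks. No tuft marker was called by edgeR. An unadjusted p under 0.05 with a lower level on HFD was found for 6 of the 20 at 9 weeks and 4 at 22 weeks. Of all genes, 8.27% and 5.61% were lower with such a p. Only 1 of the 20 tuft estimates was above 0 at 9 weeks and 2 at 22 weeks. The median tuft estimates were −0.93 and −0.38, beside −0.05 and −0.03 over all genes. The 8 Paneth cell markers summed to a median of 2808 on RFD and 28588 on HFD at 9 weeks, with up to 620590 in 1 library, and to 1517 and 11675 at 22 weeks. All 8 Paneth estimates were above 0 at both times and 0 were called by edgeR. An unadjusted p under 0.05 was found for 1 at 9 weeks, where 9.73% of all genes were higher with such a p. Of the 6 stem cell markers 2, Olfm4 and Smoc2, were called as higher at 9 weeks, beside 2% of all genes. The summed level of the 6 had medians of 443 CPM on RFD and 1365 on HFD. Of the 8 enteroendocrine markers 3 (Cck, Gcg and Scg2) were called as lower at 22 weeks, beside 0.357% of all genes. The summed medians of the 8 were 403 CPM on RFD and 172 on HFD. The 11 myeloid markers all had estimates above 0 at 22 weeks, with 0 called. An unadjusted p under 0.05 was found for 4, where 4.69% of all genes were higher with such a p. Summed myeloid medians were 15.1 CPM on RFD and 13.5 on HFD, with up to 2563 CPM in 1 HFD library. The enterocyte list had 1 marker of 15 called in each direction at 9 weeks (all genes: 2% higher, 1.33% lower). At 22 weeks 2 were called higher and 1 lower (0.435% and 0.357%). No goblet, intraepithelial lymphocyte or M cell marker was called at either time. Estimates were above 0 for 7 of the 8 goblet markers at 9 weeks and for 8 at 22 weeks. They were above 0 for 0 of the 7 lymphocyte markers tested at either time. Summed lymphocyte medians were 21.8 CPM on RFD and 1.29 on HFD at 9 weeks, and 14.8 and 4.17 at 22 weeks. The part of RNA from these cells in the results was not tested, other than through the tuft and enterocyte covariate given below. In bulk samples fewer cells of a type cannot be told apart from less RNA per cell. Apart from the rest stood RFD mouse 40 at 9 weeks, which had the fewest reads and a median Spearman rho of 0.49 to its own group, and RFD mouse 3 at 22 weeks, with 8580 genes detected and a rho of 0.53. The other 43 libraries had 10877 to 22337 genes detected and a rho of 0.71 to 0.88.

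To examine the diet effect, HFD was compared with RFD within each set. At 9 weeks, 2 of the 9 genes, Il18 and Gsdmd, were lower on HFD with an adjusted p under 0.1, and in this fit none was higher (quasi-likelihood test of edgeR, adjusted after Benjamini and Hochberg over all genes tested). Over all 14020 genes, 3.32% were called in this comparison and 1.33% were called as lower. These calls depended on the fit. DESeq2 called Il18 and Gsdmd as lower and Pycard and Casp1 as higher (10.9% of all genes), and the rank test written after SAM-seq added Nlrp6 and Gsdmc4 as higher to these (24.1%). Without the filter on low counts Gsdmd was called as lower and Nlrp6, Pycard and Casp1 as higher (5.22%). None of the 9 was called by limma on log2(TPM + 1) (0.0785%) or with the series of mouse numbers, described with Il18, as a batch term (3.25%). At 22 weeks, 0 of the 9 genes were called by edgeR, beside 0.792% of all genes. DESeq2 called 1, Pycard as higher (2.5% of all genes), and limma on log2(TPM + 1) called 0 (0.385%). The rank test called 5 (8.54%), with Il18 as lower and Nlrp6, Pycard, Gsdmc2 and Gsdmc4 as higher. An unadjusted p under 0.05 was found for 6 of the 9 genes at each time, beside 18% of all genes at 9 weeks and 10.3% at 22 weeks. The estimates of Nlrp6, Pycard, Casp1 and of all the Gsdmc copies were above 0 at both times, and those of Il18 and Gsdmd were below 0 at both times.

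**Figure D1:**
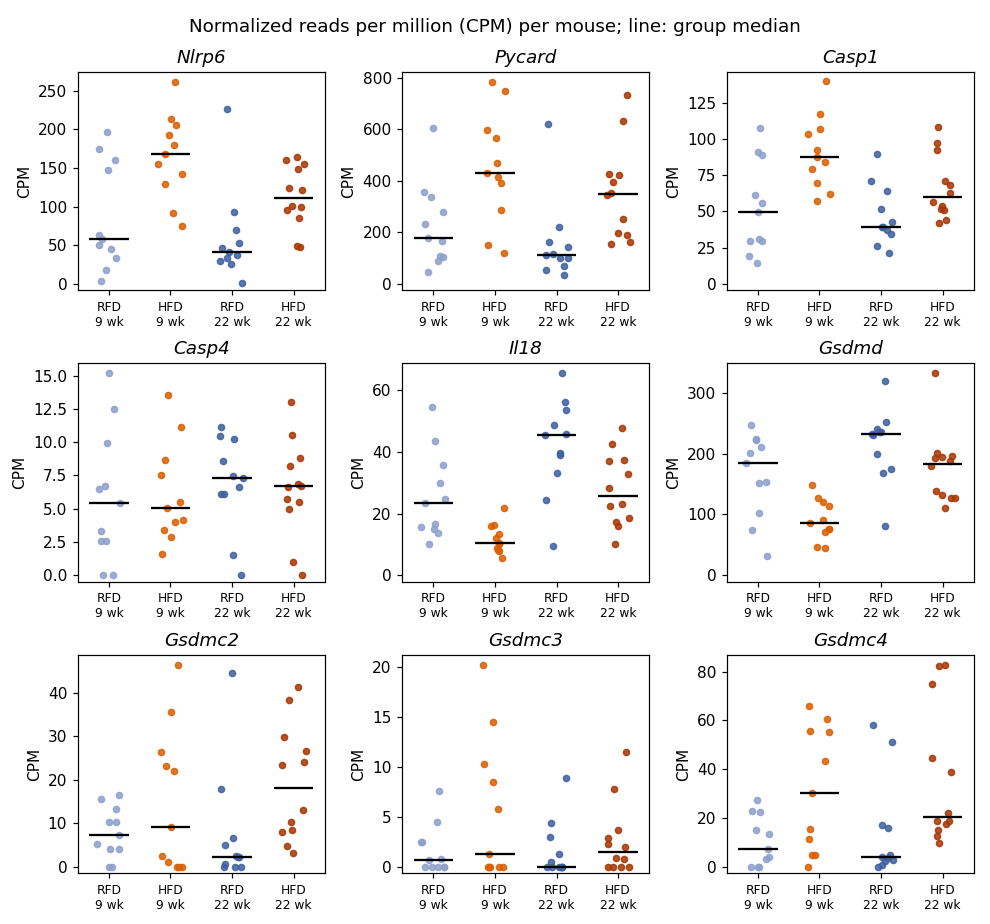
CPM of each of the 9 genes in every mouse (points) for RFD and HFD at 9 and 22 weeks, with the group median as a line, on linear axes that differ between panels. At 9 weeks every HFD mouse lies below the RFD median of Il18 and of Gsdmd and above that of Nlrp6 and of Casp1.

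**Figure D2:**
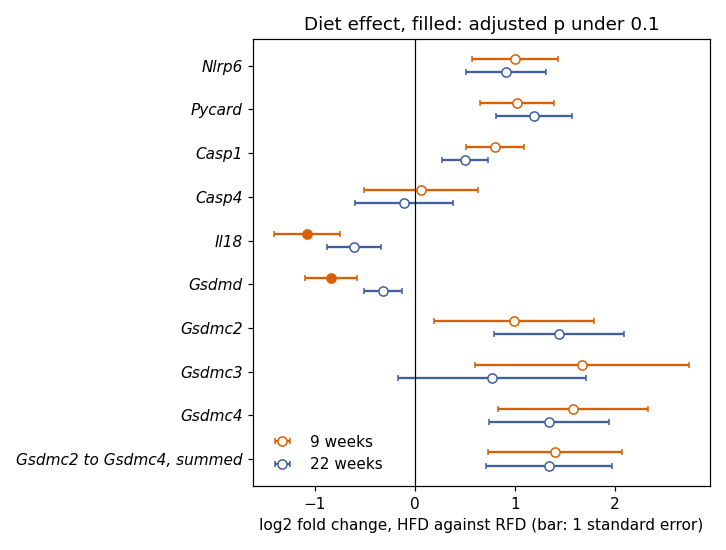
Log2 fold change of HFD against RFD (horizontal axis) with 1 standard error for the 9 genes and for the sum of the Gsdmc copies at 9 and 22 weeks, filled where the adjusted p was under 0.1. Only Il18 and Gsdmd at 9 weeks are filled, both below 0.

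Il18 encodes the cytokine that caspase-1 activates. At 9 weeks its CPM was 10.2 to 54.7 on RFD (median 23.3) and 5.48 to 21.7 on HFD (median 10.6). All of the 11 HFD mice were below the RFD median, 5 of them below every RFD mouse, although the groups overlapped. Il18 thus fell by 1.08 on the log2 scale (SE 0.33), 2.12-fold, with p = 0.00273 and an adjusted p of 0.0962. The difference in mean log2 CPM was −1.08 within the mice numbered 1 to 8, −1.04 within the multiples of 10 and −0.77 within the other numbers from 21 to 64; the labels do not say what these number series stand for. The study killed its mice over consecutive days, taking a cage of every group on each. Its figure legends also state that the mice came from repeated experiments. Whether the series follow those days or experiments is not given. The fit with the series as a batch term left out RFD mouse 84, whose number is in none of the series. Its estimate was −1.08 and its adjusted p 0.11, so the call was lost. Without mouse 84 and with no batch term the adjusted p was 0.158, so the loss cannot be put down to the batch term. The call was also lost without the libraries of low total (0.111), without the filter on low counts (0.156) and with limma on log2(TPM + 1) (0.241). The call was kept in 5 of the 10 alternatives run. Among these were DESeq2 (0.0176, beside 10.9% of all genes called) and the rank test (0.0231, beside 24.1%). Counts were low, with 2 to 144 reads per RFD library and 3 to 45 per HFD library. At 22 weeks its CPM was 9.53 to 65.8 on RFD (median 45.4) and 10.2 to 47.7 on HFD (median 25.7), with 11 of 12 HFD mice below the RFD median. That estimate was −0.61 (SE 0.27) with p = 0.0333 and did not pass after adjustment (0.451), and the series gave −0.57, −0.36 and −0.89. By the rank test Il18 passed at 22 weeks (adjusted p = 0.0958), beside 8.54% of all genes.

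Gsdmd encodes the pore-forming gasdermin D. Its CPM at 9 weeks was 31.1 to 248 on RFD (median 184) and 44.0 to 148 on HFD (median 86.0). Every one of the 11 HFD mice lay below the RFD median, and 8 of the 11 RFD mice lay above every HFD mouse. The gene fell by 0.84 on the log2 scale (SE 0.26), 1.79-fold, with p = 0.00299 and an adjusted p of 0.0971. The series did not all show this difference. It was −1.02 within the mice numbered 1 to 8, −0.95 within the numbers from 21 to 64 and 0.16 within the multiples of 10. In that last series the RFD mice 10, 20 and 40 had 102, 73.8 and 31.1 CPM. The HFD mice 50, 60, 70 and 80 had 75.4, 148, 46.4 and 44.0 CPM. The value of mouse 40, the library with the fewest reads, rests on 4 reads of Gsdmd. The difference within the series without mouse 40 was not computed. With the series as a batch term, and so without RFD mouse 84, the estimate was −0.64 and the adjusted p 0.171. Without mouse 84 and with no batch term the adjusted p was 0.159. With the difference between tuft and enterocyte markers as a covariate the estimate was −0.63 and the adjusted p 0.214. At 22 weeks Gsdmd had 80.8 to 320.0 CPM on RFD (median 233) and 111 to 333 on HFD (median 183). There, 11 of 12 HFD mice were below the RFD median and mouse 65 was above every RFD mouse. The estimate of −0.32 (SE 0.19) did not pass the test (p = 0.111, adjusted p = 0.603), and the series gave −0.35, −0.67 and −0.17.

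Nlrp6, the sensor, had 3.19 to 197 CPM on RFD (median 57.5) and 74.2 to 262 on HFD (median 168) at 9 weeks. Every one of the 11 HFD mice was above the RFD median, and 7 of the 11 RFD mice were below every HFD mouse. The RFD mice were spread widely, with 4 between 148 and 197 CPM and the other 7 at 63.6 or less. The estimate was 1.00 on the log2 scale (SE 0.43, p = 0.0271), which did not pass after adjustment (0.213), and the series gave 1.72, 0.00 and 2.15. At 22 weeks Nlrp6 had 0.877 to 226 CPM on RFD (median 40.9) and 48.1 to 165 on HFD (median 111). All of the 12 HFD mice again lay above the RFD median. RFD mouse 1, with 226 CPM, was above every HFD mouse, whereas RFD mouse 3 had a single read of the gene. The estimate was 0.91 (SE 0.40, p = 0.0300, adjusted p = 0.436), and the series gave 2.13, 1.25 and 0.97. By the rank test Nlrp6 passed at 22 weeks (adjusted p = 0.0299), beside 8.54% of all genes.

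Pycard encodes the adaptor that links sensor and caspase. It had 43.7 to 606 CPM on RFD (median 179) and 121 to 785 on HFD (median 429) at 9 weeks, and 9 of the 11 HFD mice exceeded the RFD median. The estimate was 1.02 (SE 0.37, p = 0.00968, adjusted p = 0.147), and the differences within the series were 1.27, 0.22 and 1.36. At 22 weeks it had 32.3 to 621 CPM on RFD (median 110) and 153 to 731 on HFD (median 347). All 12 HFD mice exceeded the RFD median and 8 of the 11 RFD mice were below every HFD mouse. The RFD mouse with 621 CPM was mouse 1, and the next highest RFD mouse had 221 CPM. The estimate of 1.19 (SE 0.38, p = 0.00400), or 2.28-fold, had the smallest p among the 9 genes at 22 weeks but an adjusted p of 0.215. It was 1.12, 2.13 and 1.42 within the series. With the series as a batch term, and so without HFD mouse 65, the adjusted p was 0.0370, where 1.32% of all genes were called. Without mouse 65 and with no batch term the adjusted p was 0.189. With the reads of Gm45205 added, the estimates were 1.00 and 1.17.

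Casp1, the protease that cuts interleukin-18 and gasdermin D, had 14.3 to 108 CPM on RFD (median 49.7) and 57.5 to 140 on HFD (median 87.4) at 9 weeks. Again all 11 HFD mice exceeded the RFD median and 7 of the 11 RFD mice were below every HFD mouse. Its estimate was 0.80 (SE 0.29, p = 0.00932, adjusted p = 0.144), and the series gave 0.83, 0.50 and 1.39. At 22 weeks it had 20.9 to 89.4 CPM on RFD (median 39.6) and 41.9 to 109 on HFD (median 59.8), with all 12 HFD mice above the RFD median and an estimate of 0.50 (SE 0.23, p = 0.0401, adjusted p = 0.463). The series then gave 0.32, 0.69 and 0.51. Casp4, its neighbour on chromosome 9, was close to the limit of detection, with at most 15.2 CPM in any mouse and 4 libraries without a read. Its estimates were 0.06 (SE 0.57) at 9 weeks and −0.11 (SE 0.49) at 22 weeks. These standard errors are too wide to show whether Casp4 moved with Casp1.

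The gasdermin C copies were sparse. Gsdmc4 had the most reads of them, with 0 to 27.2 CPM on RFD (median 7.19) and 0 to 65.8 on HFD (median 30.4) at 9 weeks. Of the 11 HFD mice, 6 exceeded every RFD mouse while the others lay among them, and the estimate was 1.58 (SE 0.75, p = 0.0450, adjusted p = 0.268). At 22 weeks Gsdmc4 had 0 to 58.0 CPM on RFD (median 3.84) and 9.61 to 82.8 on HFD (median 20.4), and all 12 HFD mice were above the RFD median. That estimate was 1.34 (SE 0.60, p = 0.0339, adjusted p = 0.451). Gsdmc2 ranged from 0 to 16.5 CPM on RFD and from 0 to 46.4 on HFD at 9 weeks, with medians of 7.21 and 9.07 and an estimate of 0.99 (SE 0.80), which turned to −0.26 with limma on log2(TPM + 0.1). The HFD mice were split, with 5 above every RFD mouse and 3 without a read. At 22 weeks Gsdmc2 had medians of 2.34 and 18.2 CPM, all 12 HFD mice exceeded the RFD median, and the estimate was 1.44 (SE 0.65, p = 0.0334, adjusted p = 0.451). Gsdmc3 was without reads in 20 of the 45 libraries and reached at most 20.2 CPM. By the rank test Gsdmc4 passed at 9 weeks (adjusted p = 0.0765), where 24.1% of all genes passed. At 22 weeks Gsdmc4 (0.0462) and Gsdmc2 (0.0379) passed by that test, beside 8.54% of all genes.

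Summed over the 3 copies, 0 to 38.2 CPM were found on RFD (median 22.4) and 0 to 106 on HFD (median 60.9) at 9 weeks. Of the HFD mice, 6 were above every RFD mouse and the others lay among the RFD mice, with 4 below the RFD median. At 22 weeks the sum was 0 to 112 CPM on RFD (median 6.54) and 16.9 to 136 on HFD (median 39.96), with all 12 HFD mice above the RFD median. The estimates were 1.40 (SE 0.67, adjusted p = 0.274) and 1.34 (SE 0.63, adjusted p = 0.475), so the summed difference did not pass at either time. Within the series the 9-week differences were 1.06, −0.14 and 1.61, and those at 22 weeks were 1.92, 2.92 and 2.14. The library without a read of any copy at 22 weeks was RFD mouse 3.

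An interaction term of diet and set, fitted over all 45 libraries, tested whether HFD acted differently in the 2 sets. None of the 9 genes was called, beside 0% of all genes with edgeR and with DESeq2, and none had an unadjusted p under 0.05, beside 3.22% of all genes. The smallest p was that of Gsdmd, with a difference of 0.58 (SE 0.33, p = 0.0817). For Il18 the difference was 0.51 (SE 0.41) and for Pycard 0.18 (SE 0.55). The calls of Il18 and Gsdmd at 9 weeks alone are therefore not shown to be particular to that time.

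Each library was also left out in turn. At 9 weeks the number of the 9 genes called ranged from 0 to 5 over the 22 fits, and it was 0 in 15 of them. Il18 was called in 4 of the 22 fits and Gsdmd in 6, while their estimates stayed between −1.22 and −0.89 and between −0.97 and −0.77. Without RFD mouse 40 both remained called, with adjusted p values of 0.0797 and 0.0447, beside 3.5% of all genes. Without RFD mouse 20, Nlrp6 (0.0797), Pycard (0.0251) and Casp1 (0.0551) were called as higher beside Il18 (0.0516) and Gsdmd (0.0289), and the number of all genes called went from 466 to 1673 (11.9%). At 22 weeks 1 library decided the count. Without RFD mouse 1, Pycard (estimate 1.73, adjusted p = 0.0033), Nlrp6 (1.45, 0.0232) and Casp1 (0.69, 0.0932) were called as higher and 667 of all genes (4.76%) were called in place of 111. Leaving out RFD mouse 3 or any of the other libraries called none of the 9 genes at 22 weeks.

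**Figure D3:**
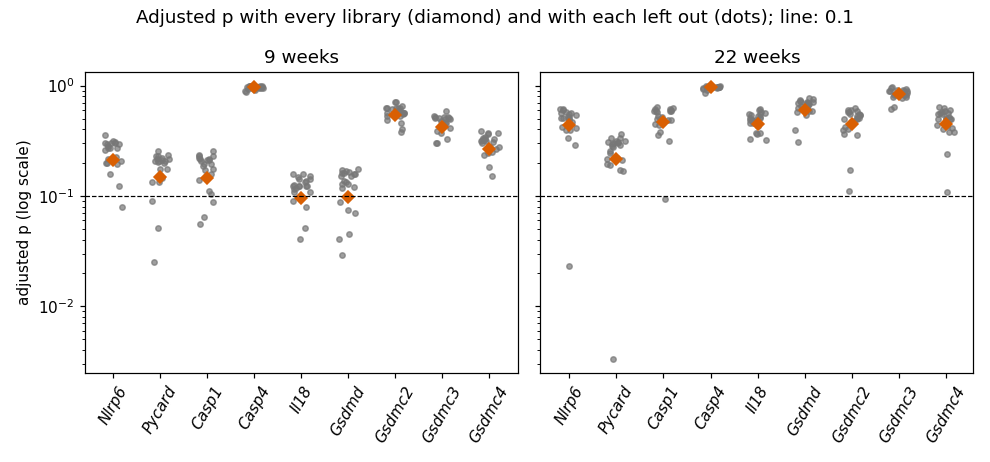
Adjusted p (log axis) of each gene at 9 and 22 weeks with every library (diamonds) and with each library left out (dots), and the threshold of 0.1 as a dashed line. At 9 weeks the dots of Il18 and Gsdmd lie on both sides of the line, and at 22 weeks 1 dot each of Nlrp6, Pycard and Casp1 lies below it, from the fit without RFD mouse 1.

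Levels of different genes were compared per transcript length, as TPM. These values carry no TMM scaling, so the TPM medians of a gene on RFD and HFD do not give its diet effect. At 9 weeks HFD mice 70 and 80 had 46.4 and 44.0 CPM of Gsdmd but 12.4 and 5.06 TPM. Pycard had the highest median TPM of the 9 genes in each of the groups, at 173 and 300 TPM on RFD and HFD at 9 weeks and 138 and 394 TPM at 22 weeks. Gsdmd came next, with 93.6 TPM on RFD and 45.9 TPM on HFD at 9 weeks and with 130 and 105 TPM at 22 weeks. These neighbours were not always apart, since Pycard was above Gsdmd in 9 of 11 RFD mice at 9 weeks but in 5 of 11 at 22 weeks, and in every HFD mouse at both times. On HFD at 9 weeks Casp1 was close to Gsdmd, with a median of 45.03 TPM, and was above it in 8 of 11 mice. The order of Il18 and Casp1, which is read within a library, differed between the diets at 9 weeks. Il18 was above Casp1 in 10 of 11 RFD mice, at medians of 32.7 and 29.5 TPM, and in 0 of 11 HFD mice, at 18.6 and 45.03 TPM. At 22 weeks it was above Casp1 in 10 of 11 RFD mice, at 110 and 29.4 TPM, and in 9 of 12 HFD mice, at 51.0 and 43.2 TPM. This ordering was noticed after the values were seen and was not tested. Nlrp6 had medians of 8.51 to 24.6 TPM over the groups, Casp4 of 3.68 to 7.45 TPM, Gsdmc4 of 1.96 to 12.6 TPM, Gsdmc2 of 1.19 to 7.44 TPM and Gsdmc3 of 0 to 0.96 TPM. Casp1 was above Nlrp6 in 9 of 11 RFD mice at 9 weeks and in every mouse of the other groups. The ranges of Casp4, Gsdmc2 and Gsdmc4 overlapped in every group.

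To describe how the genes varied among mice of one group, log2 CPM was centred on the mean of each group and compared over the 45 libraries. Of the 36 pairs, 26 had a Spearman rho above 0. Pycard and Casp1 had a rho of 0.72, Nlrp6 and Pycard 0.62, Gsdmc4 and Pycard 0.63 and Il18 and Casp1 0.54. Gsdmd ran the other way, with a rho below 0 to each of the other 8 genes, from −0.67 with Nlrp6 and −0.56 with Pycard to −0.05 with Il18. The Gsdmc copies had rho values of 0.58 to 0.59 with each other, but they share reads. All values come from the same libraries and their scaling, so they are given as a description.

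**Figure D4:**
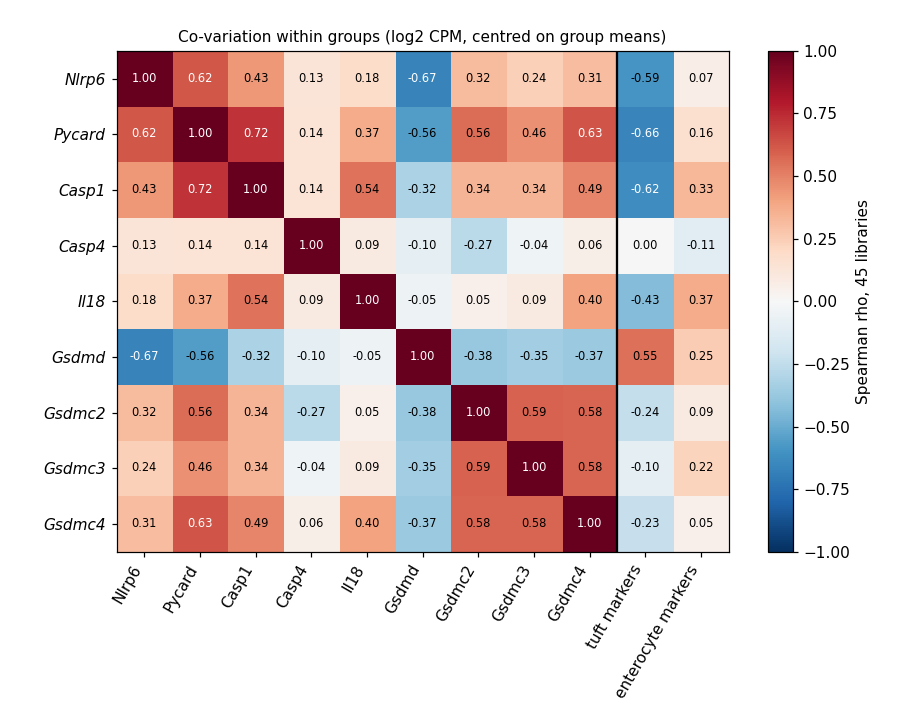
Spearman rho over 45 libraries of log2 CPM centred on group means, for each pair of the 9 genes and, right of the line, for each gene with the mean of the tuft and of the enterocyte markers (colour and number, −1 to 1). Gsdmd is negative with the other 8 genes and positive with the tuft markers (0.55), whereas Pycard, Casp1 and Nlrp6 are negative with them.

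Of the 9 genes, 5 had a rank correlation with the mean of the tuft markers that passed after adjustment. The share of all genes with such a correlation was not computed, so the count is not shown to be particular to these genes. Over the 45 libraries Pycard had a Pearson r of −0.60 with it (permutation p = 2e-05, 0.00036 after adjustment over the 18 relations computed) and a Spearman rho of −0.66 (permutation p = 3e-05, adjusted 0.00027). For Gsdmd r was 0.62 (permutation p = 4e-05, adjusted 0.00036) and rho 0.55 (permutation p = 0.00021, adjusted 0.00094). Casp1 had an r of −0.44 (permutation p = 0.0028, adjusted 0.017) and a rho of −0.62 (permutation p = 2e-05, adjusted 0.00027). For Nlrp6 r was −0.34 (permutation p = 0.024, adjusted 0.087) and rho −0.59 (permutation p = 5e-05, adjusted 0.0003). Without the 2 libraries farthest from the median marker mean, r was −0.65, 0.61, −0.53 and −0.34 in that order. The rank correlation kept its sign within each number series, at −0.55, −0.71 and −0.44 for Pycard, 0.40, 0.79 and 0.51 for Gsdmd, −0.52, −0.53 and −0.41 for Casp1 and −0.41, −0.85 and −0.57 for Nlrp6. Il18 had an r of −0.29 (permutation p = 0.057, adjusted 0.13) and a rho of −0.43 (permutation p = 0.0031, adjusted 0.011) with the tuft markers. The other 4 genes did not pass, with a rho of 0.00 for Casp4, −0.24 for Gsdmc2, −0.10 for Gsdmc3 and −0.23 for Gsdmc4 (permutation, adjusted p 0.99, 0.22, 0.64 and 0.23). With the enterocyte markers the r of Il18 was 0.40 (permutation p = 0.0070, adjusted 0.031) and its rho 0.37 (permutation p = 0.012, adjusted 0.036), and rho was 0.23, 0.30 and 0.38 within the series. The difference between the marker lists was also used as a covariate. At 9 weeks Il18 then had an estimate of −1.21 (adjusted p = 0.0762, beside 1.8% of all genes called). Pycard went from 1.02 to 0.67, Nlrp6 from 1.0 to 0.8 and Casp1 from 0.8 to 0.58. At 22 weeks Pycard went from 1.19 to 1.07. Casp1 had an r of 0.30 with the enterocyte markers (permutation p = 0.047, adjusted 0.13) and a rho of 0.33 (permutation p = 0.028, adjusted 0.072), and the adjusted p of rho was 0.22 to 0.78 for the other 7 genes.

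By the same measure, the genes most like each of the 9 were read from all 14020. Pycard was closest to Krt19 (rho 0.92), an epithelial keratin gene, Prdx1 (0.89) and Lypd8 (0.87), and Casp1 to Prdx1 (0.80), Arl1 (0.80) and Sucla2 (0.79). Nlrp6 was most like Nomo1 (0.84), Rgn (0.77) and Adk (0.77), and Gsdmd most like Prr15 (0.78), Rhoc (0.77) and Atp6v0a1 (0.75). Il18 had weaker neighbours, Sult1b1 (0.64), Tm4sf20 (0.62) and Elovl7 (0.60), and Gsdmc4 had Elovl7 (0.70), Rsl24d1 (0.68) and Krt19 (0.67). Among the closest genes of Gsdmc2 were Usp53 (0.62) and Atp6v0e2 (0.61), those of Gsdmc3 were Twf1 (0.63), Nqo1 (0.62) and Pank3 (0.61), and those of Casp4 were Ivns1abp (0.60), Ptpn22 (0.59) and Vcp-rs (0.56). Krt19 and Prdx1 each stand in the lists of 2 of the 9 genes, as does Elovl7.

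The rest of the pathway was read from a list of 60 genes that includes the 9, of which 49 were tested. At 9 weeks 5 of the 49 were called by edgeR, all lower on HFD, where 3.32% of all genes were called and 1.33% as lower. At 22 weeks 0 were called by edgeR (0.792% of all genes), 11 had an unadjusted p under 0.05 (10.3%), and 1 was called by DESeq2 (2.5%), 8 by the rank test (8.54%) and 0 by limma on log2(TPM + 1) (0.385%). The median log2 fold change of the 40 genes other than the 9 was −0.25 at 9 weeks and 0.06 at 22 weeks, beside −0.05 and −0.03 over all genes. Besides Il18 and Gsdmd, the called genes were Naip2, Naip5 and Sharpin.

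Naip5 and Naip2 encode sensors of bacterial flagellin and secretion systems that act through NLRC4. Naip5 had 36.0 to 197 CPM on RFD (median 117) and 9.02 to 136 on HFD (median 33.5) at 9 weeks, and fell by 1.26 on the log2 scale (SE 0.35, adjusted p = 0.0721). Naip2 had 15.2 to 73.8 CPM on RFD (median 53.3) and 5.80 to 55.4 on HFD (median 18.0) and fell by 1.11 (SE 0.32, adjusted p = 0.0757). For both genes 10 of the 11 HFD mice had less than the RFD median, and within the series the differences were all below 0. Of their stretches of 50 bases, 36.9% and 19.1% also occur in other genes, chiefly other Naip genes, so their counts are uncertain. Sharpin, which encodes a subunit of the complex that builds linear ubiquitin chains, had 24.6 to 116 CPM on RFD (median 49.9) and 11.6 to 54.8 on HFD (median 22.3) and fell by 1.06 (SE 0.30, adjusted p = 0.0751). At 22 weeks the estimates were −0.69 (SE 0.39) for Naip5, −0.26 (SE 0.26) for Naip2 and −0.19 (SE 0.35) for Sharpin.

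Among the other sensors, Nlrc4, the partner of the Naip proteins, had estimates of 0.06 (SE 0.29) and −0.01 (SE 0.33) at 9 and 22 weeks, and in all 2 of the 10 sensors tested were called at 9 weeks, beside 3.32% of all genes. None of the other caspases listed was called, and Casp8 had estimates of −0.07 (SE 0.20) and 0.11 (SE 0.16). Of the cytokines, Il18bp, which encodes a secreted inhibitor of interleukin-18, had estimates of −1.26 (SE 0.51, adjusted p = 0.185) and −1.02 (SE 0.47, adjusted p = 0.463). The receptor genes, 5 of 6 tested, gave no call at either time, and the estimates of the interleukin-18 receptor gene Il18r1 had standard errors of 1.19 and 0.83. Of the regulators, 1 of 17 was called at 9 weeks beside the same 3.32%, which was Sharpin, and Dhx15, an RNA helicase gene, had estimates of 0.86 (SE 0.33, adjusted p = 0.165) and 0.61 (SE 0.24, adjusted p = 0.360). Among the gasdermins, Gsdme had estimates of 0.64 (SE 0.38) and 0.12 (SE 0.30).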

How the data were processed

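RNA of tuft cells from single mice was sequenced as Smart-seq2 libraries. Per the study's methods and the submitters' processing notes, the authors trimmed reads with Cutadapt 1.15, aligned them with STAR 2.6.0 and estimated counts with RSEM; the notes name GRCm38, and the annotation release is not given in the sources used here. The deposited tables hold expected counts, the estimated reads per gene before the authors' filter, and TPM, which the authors scaled for transcript length and depth. RSEM divides reads that match several genes, and 8.79% of counts above 0 were not whole. The authors' weighting of counts by estimated cell type shares was not repeated here. The tables of each set hold 12 further columns that belonged to no sample, which were not used, and neither were the FPKM tables.

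Counts were rounded. Symbols came from GENCODE M21 (47224 of 47729 identifiers), and of genes with the same symbol the one with most reads was kept. A gene was tested if 6 or more of the 45 libraries had over 5 reads of it (14020 genes). Each set was fitted on its own with edgeR 4.0.16 (R 4.3.3), TMM normalization and the robust quasi-likelihood test, with Benjamini-Hochberg adjustment over all genes tested and a threshold of 0.1. CPM used TMM-scaled totals over all 45 libraries, and log2 CPM a prior count of 2. Standard errors are the estimate divided by the square root of F. The mice share no numbers between diets within a set. Alternatives used DESeq2 1.42.0, limma 3.58.1 on log2(TPM + 1) and log2(TPM + 0.1) and a rank test after SAM-seq, the others changing normalization, filter, covariates or libraries. The limma fits used TPM without TMM scaling. The fits with the number series left out RFD mouse 84 at 9 weeks and HFD mouse 65 at 22 weeks, whose numbers are in none of the series. Leaving out each library and adding the reads of Gm45205 were chosen after seeing the data. Correlations used 100000 permutations (two-sided), and coding sequences were aligned with MAFFT 7.526. Named are all 9 genes, the genes of the pathway list with an adjusted p under 0.1, and the 3 genes most like each of the 9, of which 1 is not reported here; other genes of the list were named after their values were seen. The tests were tried on simulated data. The 9 genes and all lists were chosen with earlier results of these data known.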

Additional observations from a re-analysis of the deposited data

How the results depend on the processing

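No paired analysis was possible because the diets share no mouse numbers within a set. Read depth limits Casp4, Gsdmc2, Gsdmc3 and Gsdmc4, which had over 5 reads in 33, 32, 11 and 35 of the 45 libraries. At 9 weeks the genes called, of the 9, of the 60 in the pathway list and of all genes, were 2, 5 and 466. They were 4, 12 and 1534 with DESeq2, 4, 10 and 1698 without the filter on low counts, 0, 0 and 11 with limma on log2(TPM + 1), 0, 0 and 5 with limma on log2(TPM + 0.1), 6, 15 and 3373 with the rank test, 1, 2 and 253 with the tuft and enterocyte covariate, and 1, 3 and 290 without the 2 libraries under 500000 reads; they were 0, 3 and 456 with the number series in the model. At 22 weeks they were 0, 0 and 111, against 1, 1 and 351 with DESeq2, 0, 1 and 435 without the filter, 5, 8 and 1198 with the rank test and 1, 1 and 185 with the number series. All genes called at 22 weeks were 54 and 35 with limma (pseudocounts 1 and 0.1) and 63 with 1 fit over all 45 libraries; no library at 22 weeks had a low total. The difference between the sets was called for 0 genes, and for 65 without the filter, none of them among the 9. With each library left out the counts ranged from 0 to 5, 0 to 12 and 59 to 1996 at 9 weeks and from 0 to 3, 0 to 4 and 58 to 667 at 22 weeks. Signs turned for Casp4, to −0.14 (number series) and −0.13 (covariate) at 9 weeks and to 0.07, 0.08 (limma, pseudocounts 1 and 0.1) and 0.06 (covariate) at 22 weeks, for Gsdmc2 at 9 weeks, to −0.26 (limma, pseudocount 0.1), and for the Nlrp6 difference between the sets, to 0.00 (DESeq2). With a library left out, Casp4 ranged from −0.15 to 0.23 at 9 weeks and from −0.24 to 0.01 at 22 weeks. The causes were not tested. The diet effects of the other members kept their sign under every alternative run, and the Gsdmc sum passed under none of the 3 alternatives run for it at 9 weeks and the 2 at 22 weeks; DESeq2, limma, the rank test and the number series were not run for it.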
